A study of Mus musculus with 2 samples.

Results

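BCR-ABL signals through adaptor proteins to STAT5, and this account follows 10 mouse genes along that route in bone marrow LSK cells (lineage-negative, Sca-1-positive, c-Kit-positive) from leukemic mice. The rule that names them uses their known roles and no measured value, but they were chosen with earlier results of these data known. They are the fusion partners Bcr and Abl1, the adaptors Crkl and Grb2, and the transcription factors Stat5a and Stat5b. The other members are the STAT5 response genes Socs2, Cish, Pim1 and Bcl2l1. All 10 were found among the 32285 genes of the files, and 9 of them had a mean level of at least 10 CPM (UMIs of a gene per 1000000 UMIs of the library or cell group). Bcl2l1, at a mean of 9.06 CPM, lay below that line.

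The study asked what loss of the microRNA miR-142 does to leukemic stem and progenitor cells. There was 1 library of LSK cells from miR-142 wild-type mice with chronic myeloid leukemia (miR-142 WT CML, strain label BCR-ABL+) and 1 from mice that also lacked miR-142 (miR-142 KO CML, strain label Mir142 KO BCR-ABL+). All mice were 8 to 10 weeks old and carried an inducible BCR-ABL transgene whose expression was switched on for 2 weeks before the cells were taken. The transgene is driven through a transactivator under the SCL (Tal1) promoter, so both groups are leukemic and there was no group without BCR-ABL. How many mice were pooled for a library was not given. With 1 library per group no test was possible, no p-value is given, and all intervals are 95% intervals that cover counting error only. The values of Bcr and Abl1 are those of the mouse gene models. The genes counted held no entry for the transgene, so reads from it could not be told apart from, or counted beside, those of the mouse genes.

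BCR-ABL is a fused kinase that stays active without a ligand. It binds adaptors such as GRB2 and CRKL and leads to phosphorylation of STAT5, which enters the nucleus and switches on genes of survival and of negative feedback. The feedback genes Socs2 and Cish code for proteins that damp cytokine receptor signaling, Pim1 codes for a survival kinase, and Bcl2l1 codes for the anti-apoptotic protein BCL-XL. The same STAT5 genes also answer to normal cytokines such as thrombopoietin and interleukin-3. Messenger RNA levels do not measure phosphorylation or kinase activity.

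Cells were barcodes with at least 8000 UMIs and under 10% mitochondrial UMIs. This gave 5363 WT cells with a median of 19443 UMIs and 5458 KO cells with a median of 24181.5 UMIs, and 4 barcodes occurred in both libraries. The label of the knockout was checked on Mir142hg, the host transcript of miR-142, which had 1260 UMIs in WT and 20 in KO. Of the sort markers, Ly6a (Sca-1) was measured at 96.8 CPM (WT) and 152.9 CPM (KO), and Kit at 86.4 and 68.3 CPM. Tal1, whose promoter drives the transactivator of the transgene, was at 27.7 and 18.2 CPM. The study reported that KO and WT leukemic mice were matched on Q-RT-PCR levels of SCL and BCR-ABL.

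Cells were assigned to groups by summed UMIs of marker genes once all cells had been drawn down to 8000 random UMIs (thinned), and no member gene was a marker. The WT and KO libraries held 860 and 118 HSC-like cells, 521 and 201 lymphoid-primed-like cells, 150 and 200 megakaryocyte-like cells, 220 and 417 erythroid-like cells, and 211 and 348 basophil/mast-like cells. A further 939 WT and 2881 KO cells lay above a line on summed granule protease genes such as Elane and Mpo. These are called granule-high and not by a cell type, since S100a8, S100a9 and Lcn2, which mark later neutrophils, were also among their 10 leading genes. The erythroid-like name rests on 3 of 11 markers (Car1, Hbb-bt and Blvrb) and the S phase name on 3 of 20 (Ung, Dtl and Uhrf1). G2/M phase cells (863 and 283), S phase cells (865 and 333) and cells past no line (689 and 527, "no gate" in the plots) made up the remaining groups with at least 100 cells in both libraries. Plasma-cell-like cells (36 and 0) and innate-lymphoid-like cells (9 and 150) were too few in WT for a ratio. HSC-like cells differed between the libraries in their markers: the median of summed marker UMIs was 5 in WT and 4 in KO. Of them, 245 WT and 61 KO cells lay near the gate line. Hlf, not a marker here, was at 214.6 and 106.1 CPM in them. It was also lower in KO in the other groups with a ratio. The part of these differences in the ratios below was not tested.

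The share of granule-high cells was 17.5% in WT and 52.8% in KO, whereas HSC-like cells made up 16.04% and 2.16%. Marker sums moved the same way: granule markers totalled 6383 CPM in WT and 14840 CPM in KO, HSC-like markers 155 and 57.7 CPM, and mature neutrophil markers 76.5 and 509 CPM. Every ratio over all cells below therefore combines levels within cell groups with a different mixture of groups.

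The strands of the deleted miRNA and the places where its seed or the STAT5 motif met the member genes are shown first. Only exact seed heptamers in 3′ untranslated regions and 1 motif in promoter windows were searched. Other kinds and places of site were not examined. The mature strands lie on the plus strand of chr11:87756867-87756887 (5p) and chr11:87756903-87756925 (3p), from RefSeq on GRCm38.p6, and the capitals mark the seed, bases 2 to 8.
mmu-miR-142a-5p: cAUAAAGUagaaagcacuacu
mmu-miR-142a-3p: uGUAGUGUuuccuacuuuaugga
The heptamer matching the 5p seed (ACTTTAT) was found in the 3′ untranslated region (3′UTR) of 1 of the 10 members, Bcr, against 14.3% of 21037 protein-coding genes. The heptamer matching the 3p seed (ACACTAC) was found in 0 of the 10, against 6.03%. For each gene the transcript with the longest 3′UTR in GENCODE vM21 was searched, and the members' 3′UTRs had a median length of 1986 bases against 960 over all these genes. The Bcr match began at base 2134 of the 3′UTR and lay in chr10:75184452-75184480 (plus strand, GRCm38).
Bcr 3′UTR: tgcctcggttcACTTTATttatttaggtt
A match describes the letters only.

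The motif TTCNNNGAA, the core bound by STAT dimers, was searched in RefSeq promoter windows from 250 bases before to 50 bases after a gene's start. The motif reads the same on both strands. Windows were present for 9 members (16 windows), all but Socs2, which was not searched. Of the 9, 1 member, Cish, held the motif, beside 9.55% of the 27025 genes with a window. Of all 32851 windows, 8.30% held at least 1 match and 0.457% at least 2. The Cish window (chr9:107296409-107296708, plus strand, GRCm38.p6) held 2, which began at the RefSeq start site and 11 bases after it. The stretch chr9:107296655-107296684 is printed with both matches in capitals.
Cish promoter: agttTTCCTGGAAagTTCTTGGAAatctgt
The lack of a match in the other windows concerns these letters in these windows only.

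To ask how the members stood over all cells, UMIs were summed per library and set as CPM. Socs2 was the member with the largest difference: 2497 UMIs (18.1 CPM, interval 17.4 to 18.8) in WT and 745 UMIs (4.70 CPM, 4.37 to 5.05) in KO. It was thus 3.84-fold lower in KO, with a log2 ratio of -1.94 (interval -2.06 to -1.82). Of the 9 members with at least 10 CPM, 1 (Socs2) was at least 1.5-fold lower in KO, beside 4.86% of all 7483 genes at that level. None of the 9 was at least 1.5-fold higher, beside 2.78% of all genes. Bcr, at 1.48-fold lower, fell just short of the line.

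All 10 members had lower CPM in the KO library, but so did most genes tested, whose median log2 ratio was -0.08. The median over the 9 members at 10 CPM was -0.38. Below Socs2 came Bcr (1973 UMIs, 14.3 CPM in WT and 1528 UMIs, 9.64 CPM in KO, log2 ratio -0.57), Cish (1858 and 1530 UMIs, 13.4 and 9.66 CPM, -0.48) and Stat5b (3122 and 2595 UMIs, 22.6 and 16.4 CPM, -0.46). Abl1 had 2497 and 2205 UMIs (18.1 and 13.9 CPM, -0.38) and Crkl 1761 and 1692 UMIs (12.7 and 10.7 CPM, -0.26). The differences were smaller for Pim1 (58614 and 58633 UMIs, 424 and 370.1 CPM, -0.20), Stat5a (4504 and 4559 UMIs, 32.6 and 28.8 CPM, -0.18) and Bcl2l1 (1318 and 1359 UMIs, 9.54 and 8.58 CPM, -0.15). Grb2 stood at 19619 and 21314 UMIs (142 and 134.5 CPM), a log2 ratio of -0.08 that equalled the median of all genes.

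**Figure D1:**
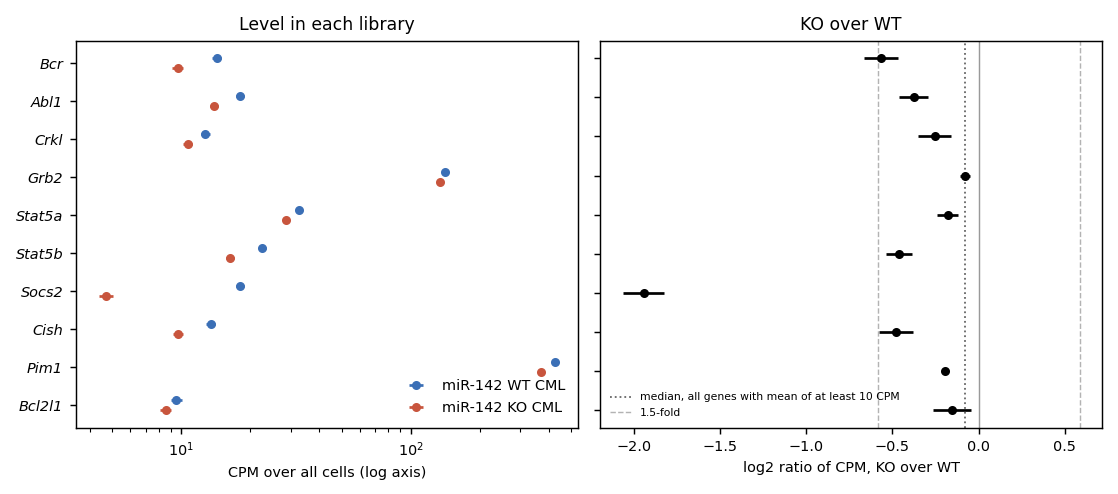
Level of each member over all cells in CPM on a log axis (left; WT blue, KO red, bars are exact Poisson 95% intervals) and log2 ratio KO over WT (right; bars are exact conditional binomial 95% intervals). Socs2, at -1.94, is the only member beyond the dashed 1.5-fold line, and Bcr at -0.57 falls just short of it.

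To separate levels within cells from the mixture of cells, both libraries were weighted to the same shares of the groups. Bcr kept a log2 ratio of -0.62 and Socs2 of -1.80, and Cish stood at -0.45. In contrast, Abl1 (-0.036), Crkl (-0.0088) and Stat5b (-0.097) came close to 0, with counting intervals that included 0. Pim1 turned to 0.20 (interval 0.18 to 0.22) and Stat5a to 0.10 (0.023 to 0.18), both higher in KO. Grb2 (0.0066) and Bcl2l1 (0.023) were near 0. At this weighting 2 members, Socs2 and Bcr, were at least 1.5-fold lower, beside 1.65% of all genes with at least 10 CPM. No member was at least 1.5-fold higher, beside 1.88% of all genes. Leaving out the granule-high cells instead gave Bcr -0.64, Socs2 -0.92, Cish 0.48 and Pim1 0.30, and in the remaining cells the basophil/mast-like group, where Socs2 and Cish were highest, made up a larger share of KO.

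**Figure D2:**
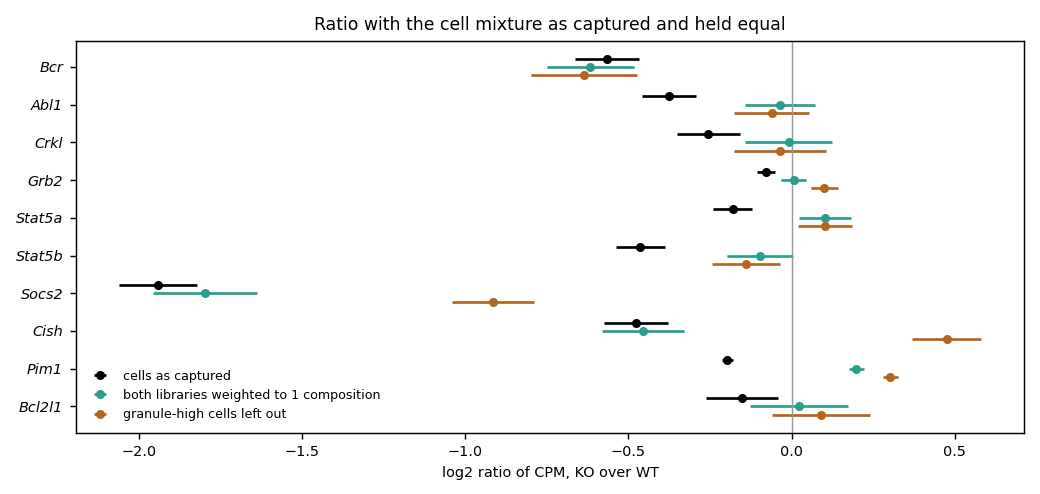
Log2 ratio KO over WT of each member with cells as captured (black), with both libraries weighted to 1 composition of the groups (green) and without granule-high cells (brown); bars are 95% counting intervals, approximate for the weighted values. Bcr and Socs2 stay below 0 in all 3, while Abl1, Crkl and Stat5b move to near 0 and Pim1 crosses to the right.

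Bcr (chr10:75060592-75184921, plus strand, GRCm38 as are all positions below) codes for a GTPase-regulating protein whose promoter and first exons head the human fusion gene. Its level was lower in KO in all 9 groups. Of all genes tested, 11.0% were lower in all 9, and the 9 groups share 2 libraries. In granule-high cells it had 697 UMIs (13.9 CPM) in WT and 1110 UMIs (9.77 CPM) in KO (log2 ratio -0.51, interval -0.65 to -0.37). In HSC-like cells it had 200 UMIs (16.6 CPM) and 12 UMIs (8.78 CPM), or -0.92 (-1.90 to -0.08). The lowest ratio was -1.15 in lymphoid-primed-like cells (17.9 and 8.06 CPM), and the megakaryocyte-like ratio of -0.50 was the 1 whose interval reached 0. Bcr varied little between groups, 1.46-fold from highest to lowest in WT and 1.63-fold in KO.

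Abl1 (chr2:31688376-31804227, plus strand), the kinase partner, followed another pattern. Its group ratios ran from -0.57 to 0.34 with a median of -0.02, and the counting interval included 0 in all 9 groups. Its level was lowest in granule-high cells in both libraries, at 12.2 CPM (613 UMIs) in WT and 11.3 CPM (1285 UMIs) in KO. In WT it was highest in HSC-like cells, at 27.1 CPM (327 UMIs), where KO had 18.3 CPM (25 UMIs), a difference not beyond counting error.

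Crkl (chr16:17451987-17487434, plus strand), an adaptor that is a main substrate of BCR-ABL, had group ratios from -0.26 to 0.30, and 0 of the 9 intervals lay off 0. It too was lowest in granule-high cells (10.5 and 9.49 CPM) and highest in HSC-like cells (16.7 CPM from 201 UMIs and 20.5 CPM from 28 UMIs). The intervals of HSC-like and lymphoid-primed-like cells overlapped in both libraries.

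Grb2 (chr11:115644045-115708597, minus strand), the adaptor that links the fusion to RAS, was highest in basophil/mast-like cells, with 206.6 CPM (WT) and 190.7 CPM (KO). Elsewhere it ranged from 131 to 157 CPM in WT and from 125 to 165 CPM in KO. Its group ratios stayed between -0.12 and 0.21. They were lower beyond counting error in granule-high cells (-0.08) and higher beyond it in cells past no line (0.14).

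Stat5a (chr11:100859351-100885169, plus strand) and Stat5b (chr11:100780731-100850724, minus strand) lie side by side and code for closely related factors. In both libraries Stat5a was highest in megakaryocyte-like cells, at 51.8 CPM (156 UMIs) in WT and 48.8 CPM (155 UMIs) in KO. In granule-high cells it stood at 22.9 and 24.0 CPM. The widest difference was in basophil/mast-like cells, where WT had 83 UMIs (18.1 CPM) and KO 238 UMIs (33.3 CPM), a log2 ratio of 0.88 (interval 0.51 to 1.26). In the 7 other gated groups the Stat5a ratios lay between -0.09 and 0.18, and in cells past no line the ratio was 0.28.

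Stat5b was lowest in granule-high cells, with 14.9 CPM (WT) and 13.2 CPM (KO), and between 19.2 and 30.5 CPM in all other groups of both libraries. Its granule-high levels lay under those of free RNA (16.8 CPM in WT and 13.7 CPM in KO). Its group ratios ran from -0.32 to 0.13, and 1 of them, in granule-high cells (-0.17), was lower beyond counting error. The 2 factors thus differed in order: megakaryocyte-like cells were at the top for Stat5a and among the 3 lowest groups for Stat5b. For both factors the interval of megakaryocyte-like cells overlapped that of the groups next in order, in both libraries.

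Socs2 (chr10:95385362-95417180, minus strand), a cytokine-inducible inhibitor of receptor signaling, was lower in KO beyond counting error in all 9 groups. In HSC-like cells it had 734 UMIs (60.9 CPM, interval 56.6 to 65.5) in WT and 14 UMIs (10.2 CPM, 5.60 to 17.2) in KO, 5.95-fold lower (log2 ratio -2.57). With the gate lines halved this ratio was -3.42, and with them doubled 9 KO cells were left and no ratio was taken. With Hlf added to the HSC-like markers it was -2.31. In S phase cells 278 UMIs (14.4 CPM) stood against 12 UMIs (1.79 CPM), a log2 ratio of -3.01. In erythroid-like cells 139 UMIs (35.1 CPM) stood against 33 UMIs (4.69 CPM), or -2.90. Both libraries had their highest Socs2 in basophil/mast-like cells, at 153 CPM (703 UMIs) in WT and 63.7 CPM (455 UMIs) in KO, or -1.27. The smallest difference was in granule-high cells, where levels were near the low end of detection (1.40 and 0.792 CPM, -0.82). Barcodes with 10 to 100 UMIs, taken as free RNA, held Socs2 with 14.6 CPM (WT) and 3.88 CPM (KO), so the levels in granule-high, S phase, G2/M phase and lymphoid-primed-like cells lay under the free RNA level in both libraries.

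Cish (chr9:107296026-107302784, plus strand), whose protein CIS binds activated receptors, depended on the group. Basophil/mast-like cells had by far the most in both libraries, 563 UMIs (122.8 CPM, interval 112.9 to 133.4) in WT and 823 UMIs (115 CPM, 107 to 123) in KO. Among the other groups with a ratio HSC-like cells were highest, with 450 UMIs (37.3 CPM) in WT and 18 UMIs (13.2 CPM) in KO (log2 ratio -1.50, interval -2.27 to -0.83). Cish was also lower in KO in erythroid-like cells (16.4 and 7.67 CPM, -1.10), megakaryocyte-like cells (22.3 and 11.7 CPM, -0.93), S phase cells (-0.46) and cells past no line (-1.17). In granule-high cells it was at 1.88 and 2.47 CPM, higher in KO (0.40, interval 0.06 to 0.75), but that direction turned to -0.11 with the gate lines halved. Free RNA held 11.3 CPM in WT and 12.6 CPM in KO, close to the 13.2 CPM of HSC-like KO cells. The KO levels of megakaryocyte-like, erythroid-like and S phase cells and of cells past no line lay under it. The 150 innate-lymphoid-like cells of KO had 42.8 CPM (145 UMIs), beside 5 UMIs in the 9 WT cells.

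The flat Cish value of the basophil/mast-like group (-0.09) joined opposite differences. After its values had been seen the gate was split by whether a cell's UMIs of the basophil genes Prss34 and Mcpt8 exceeded those of the mast cell genes Cma1 and Gzmb. On the basophil side (75 WT and 105 KO cells) Cish had 281 UMIs (135 CPM) in WT and 126 UMIs (49.1 CPM) in KO (log2 ratio -1.46, interval -1.78 to -1.15). On the mast side (136 and 243 cells) it had 282 UMIs (112.5 CPM) and 697 UMIs (152 CPM), or 0.43 (0.23 to 0.64). Pim1 split the same way, at -0.51 (622 and 437 CPM) on the basophil side and 0.46 (414 and 571 CPM) on the mast side. Bcl2l1 was at -1.68 (31.3 CPM from 65 UMIs and 9.74 CPM from 25 UMIs) against -0.07, and Bcr at -1.41 (41 and 19 UMIs) against -0.07. Socs2 was lower on both sides (-1.48 and -1.43), and Stat5a higher on both (0.99 and 0.78). The basophil-side cells differed in their markers too: the median of summed Prss34 and Mcpt8 UMIs per cell was 112 in WT and 45 in KO, and its part in these differences was not tested.

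Pim1 (chr17:29490753-29496112, plus strand), a survival kinase, had a log2 ratio below 0 over all cells but above 0 in 8 of 9 groups, 6 of them beyond counting error. In lymphoid-primed-like cells it had 6272 UMIs (541 CPM) in WT and 2444 UMIs (821 CPM) in KO, or 0.60 (interval 0.53 to 0.67). In erythroid-like cells it was at 485 and 646 CPM (0.41), and in HSC-like cells at 652 and 772 CPM (0.24). The exception was the granule-high group, at 316 CPM (15817 UMIs) in WT and 279.5 CPM (31755 UMIs) in KO, or -0.18 (-0.20 to -0.15). Both of these levels lay under those of free RNA (351 CPM in WT and 300 CPM in KO). Pim1 was highest in cells past no line in both libraries (724 and 883 CPM). The granule-high group, with 2881 of the 5458 KO cells, also had the lowest Pim1 of KO. Of all genes tested, 8.63% were higher in KO in all 9 groups, and no member was.

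Bcl2l1 (chr2:152780668-152831728, minus strand) was highest in basophil/mast-like cells, at 30.3 CPM (139 UMIs) in WT and 21.5 CPM (154 UMIs) in KO (log2 ratio -0.49, interval -0.83 to -0.15). Megakaryocyte-like cells followed with 20.9 and 19.5 CPM, and the intervals of these neighbours overlapped in both libraries. It was higher in KO in lymphoid-primed-like cells (98 UMIs, 8.46 CPM and 40 UMIs, 13.4 CPM, 0.67) and in granule-high cells (5.47 and 6.98 CPM, 0.35).

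**Figure D3:**
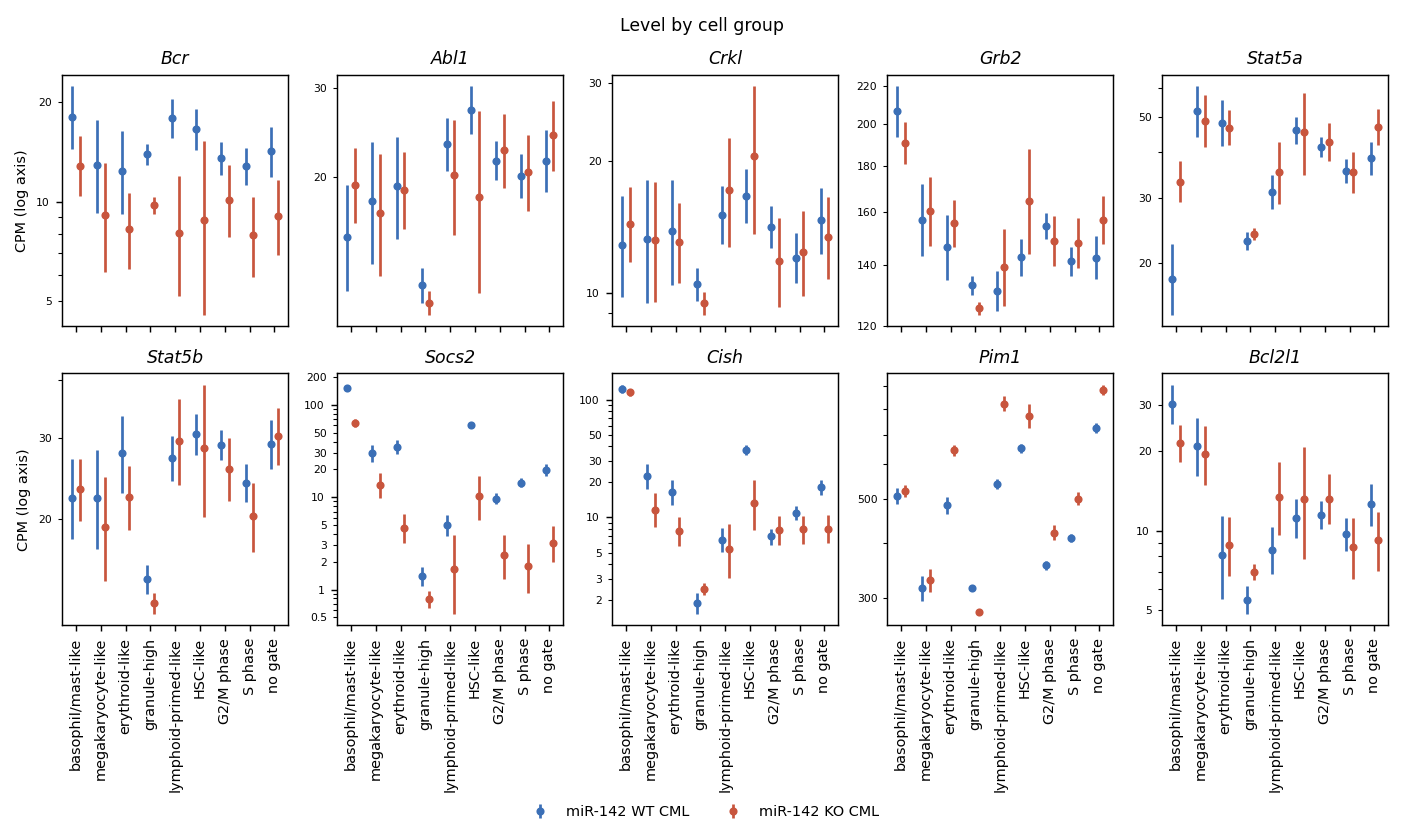
Level of each member in CPM on a log axis in the 9 cell groups with at least 100 cells in both libraries (WT blue, KO red, bars are exact Poisson 95% intervals). Socs2 is lower in KO in every group, and Cish is highest in basophil/mast-like cells in both libraries. Pim1 lies higher in KO in the 8 groups other than granule-high, in 6 of them beyond counting error.

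**Figure D4:**
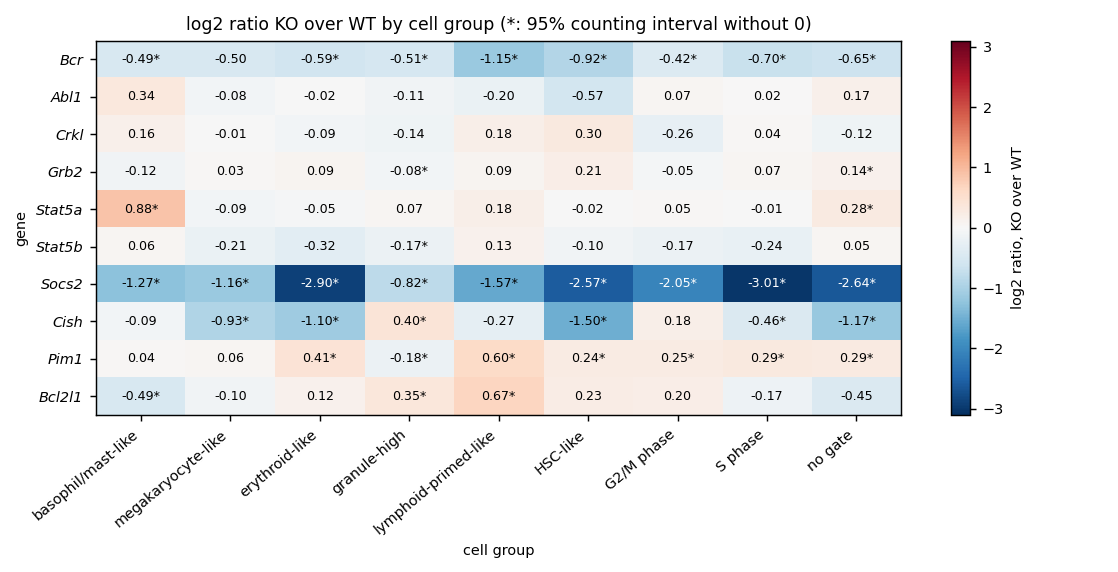
Log2 ratio KO over WT for each member (rows) and cell group (columns), blue for lower and red for higher in KO, with an asterisk where the 95% counting interval does not hold 0. The Socs2 and Bcr rows are blue throughout, from -3.01 to -0.82 and from -1.15 to -0.42, whereas the Abl1 and Crkl rows carry no asterisk.

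Shares of cells with a UMI were compared at 8000 UMIs per cell. Socs2 was detected in 13.2% of WT cells (706 of 5363, interval 12.3 to 14.1) and 4.23% of KO cells (231 of 5458, 3.71 to 4.80). Without thinning the shares were 19.97% and 7.40%. In HSC-like cells 28.4% of WT and 5.93% of KO cells held a Socs2 UMI, and in granule-high cells 0.958% and 0.659%. Cish was detected in 49.3% of WT and 45.7% of KO basophil/mast-like cells, in 24.2% and 10.2% of HSC-like cells and in 1.06% and 2.33% of granule-high cells. The median depth before thinning was 11913 and 10061 UMIs in HSC-like cells and 52856 and 38104 UMIs in granule-high cells. Socs2 and Cish were concentrated in some cells, with up to 11 and 8 UMIs in a thinned cell, and their variance over all cells was 2.47 and 1.77 times the mean in WT and 2.16 and 2.27 times in KO. For Bcr this ratio was 1.01 and 1.03, near the value of 1 that random counts give. Pim1, with a UMI in 89.6% of WT and 85.9% of KO cells, had larger ratios of 3.39 and 4.09. The ratio alone thus does not single out Socs2 and Cish.

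To see which genes accompanied Cish in the same cells, basophil/mast-like cells with a Cish UMI (104 in WT and 159 in KO) were set against those without (107 and 189), each at 8000 UMIs. Of the 5 other members with at least 50 UMIs in the cells with Cish over both libraries, 1 was at least 1.5-fold higher in both, beside 12.5% of the 4713 genes at that minimum. This was Bcl2l1, at 50.5 against 12.9 CPM in WT (log2 ratio 1.97, interval 0.99 to 3.08) and 33.8 against 13.2 CPM in KO (1.35, 0.56 to 2.20). Bcr, with 23 and 26 UMIs in the cells with Cish, fell below the minimum, and its ratios of 0.98 and 0.78 had intervals that included 0. Abl1, also below it, was at 1.48 in WT (0.17 to 2.98) and 0.31 in KO (-0.54 to 1.16). Socs2 was higher in cells with Cish by 0.40 in WT (interval 0.07 to 0.73) and 0.92 in KO (0.52 to 1.32), and Pim1 by 0.39 and 0.33, both beyond counting error. Stat5a and Stat5b, the factors themselves, had ratios of -0.58 and -0.21 in WT and -0.46 and -0.32 in KO, and all 4 intervals included 0.

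The genes most concentrated in the Cish cells were Amigo3, Ifi27l2a, Igfbp5, Gap43, Ighv1-23, Gpx3, Isg15, Svs2, Cdkn2b and Tlr2. Isg15 and Ifi27l2a are interferon response genes. Isg15 was at 60.1 against 8.18 CPM in WT and 79.4 against 7.94 CPM in KO, and Ifi27l2a at 209 against 10.5 CPM and 29.9 against 2.65 CPM. Cdkn2b, a cell cycle inhibitor, had log2 ratios of 2.63 and 2.78, and Tlr2, an innate receptor, 2.56 and 2.61. Several rest on few UMIs: Gap43 had 5 and Svs2 6 UMIs in the WT cells with Cish. Amigo3 and Gap43 had 0 UMIs in WT cells without Cish, and Igfbp5 had 0 in KO cells without it. The basophil and mast sides of the gate were not separated here.

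**Figure D5:**
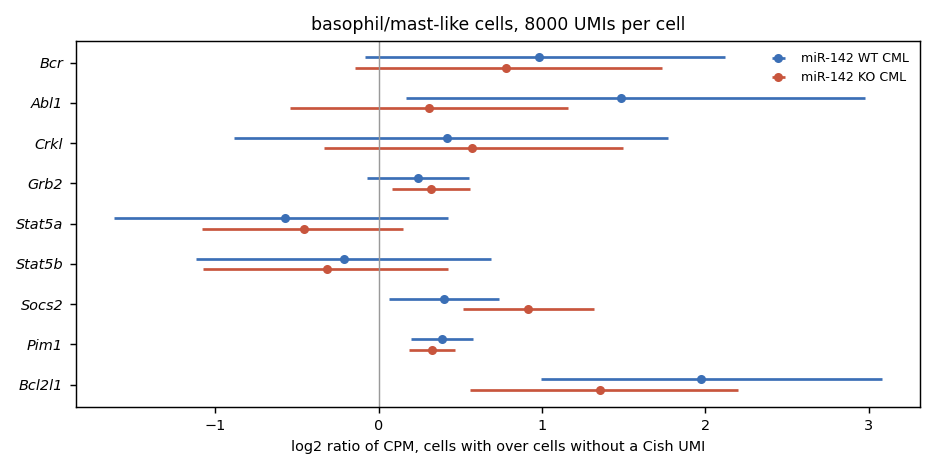
Log2 ratio of CPM between basophil/mast-like cells with and without a Cish UMI for the 9 other members, in WT (blue) and KO (red), with exact conditional binomial 95% intervals. Bcl2l1, at 1.97 and 1.35, lies farthest to the right in both libraries, while Stat5a and Stat5b lie left of 0 with intervals that hold it.

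Other genes of the route were described by lists chosen by function. Beside their counts stand the 4.86% of all genes at least 1.5-fold lower, the 2.78% at least 1.5-fold higher and the 11.0% lower in all 9 groups. Over the lists together 12 genes passed the line with cells as captured and 3 at 1 composition of the groups. The shares of all genes at 1 composition were smaller too, at 1.65% lower and 1.88% higher. Of the BCR-ABL adaptors, kinases and phosphatases, 19 of 27 reached 10 CPM, 2 were at least 1.5-fold lower, 0 higher, and the median log2 ratio was -0.16. The lower ones were Dok2, a docking protein that restrains the pathway (24.6 and 10.9 CPM, -1.18), and Fyn, a SRC family kinase (18.8 and 9.83 CPM, -0.94). Abi2 (-0.55) and Pik3cd (-0.52) stayed inside the line. Dok2 and Pik3cd were lower in 9 of 9 groups and Fyn in 8, but the median group ratio was -0.51 for Dok2 and -0.24 for Fyn.

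Of the Janus kinases and other STATs, Stat4 (22.6 and 13.2 CPM, -0.77, lower in 6 of 9 groups) and Jak3 (18.3 and 11.7 CPM, -0.64, lower in 8) were past the line. Jak2, the kinase of the thrombopoietin and interleukin-3 receptors, was at -0.43. Of the SOCS and PIAS regulators, 0 of 8 passed the line in either direction (median -0.16). Pias1 (-0.48) and Pias4 (-0.41), inhibitors of STAT activity, were lower in 9 of 9 groups and Socs6 (-0.27) in 4. Socs3, which answers mainly to STAT3, was at 0.20 over all cells, but at a median of 1.02 across groups and higher in 8 of 9. Its direction was thus opposite to that of Socs2.

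Of other STAT5 response genes, 0 of 11 were lower and 1 was higher past the line, with a median of -0.05. This was Id1, an inhibitor of differentiation factors (22.7 and 45.1 CPM, 0.99, higher in 8 of 9 groups). Ccnd2 (cyclin D2, -0.47), Gzmb (granzyme B, 0.43) and Bcl2 (-0.42) were inside it. Of receptors that use STAT5, 2 of 9 were lower and 1 higher, with a median of 0.11. Il2rg, the common gamma chain, was at 42.7 and 22.7 CPM (-0.91, lower in 9 of 9 groups). Flt3 was at 48.4 and 29.3 CPM (-0.72), but its median group ratio was -0.04. Csf2rb2, the mouse interleukin-3 receptor beta chain, was at 18.7 and 30.5 CPM (0.71, higher in 8 of 9 groups), and Kit at -0.34.

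Of RAS-MAPK response genes, the branch downstream of GRB2, 3 of 6 were at least 1.5-fold lower, with a median of -0.42: Dusp6 (15.3 and 9.42 CPM, -0.70), Egr1 (235 and 146 CPM, -0.69) and Spred1 (22.3 and 14.2 CPM, -0.65). Spry2 was at -0.19. The median group ratios of Dusp6 (-0.06) and Egr1 (0.25) did not keep these sizes, and that of Spred1 was -0.38. The other two genes of the list at 10 CPM, Fos and Ier3, named after their values were seen, had median group ratios of 0.57 and 0.31 and were higher in 9 and 8 of 9 groups. The median over the list of these group medians was 0.099, opposite in sign to the list's median over all cells. Tal1 had group ratios with a median of -0.22, and was at 48.5 and 52.7 CPM in HSC-like cells against 13.1 and 11.3 CPM in granule-high cells.

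The genes with the most similar pattern were found by Pearson's r of log2(CPM + 1) over 18 points (9 groups in 2 libraries). These points share libraries and depth, so r is a description. Socs2 was followed most closely by Lcp2, Akr1c13 and its fellow member Cish (r = 0.92 each), and Cish by Prxl2a, Ski and Golim4 (0.96 each). Pim1 resembled Mcl1 (0.94), Zfp36 (0.92) and Sytl1 (0.91), of which Mcl1 is itself on the list of STAT5 response genes. Bcl2l1 resembled Jak2 (0.93), Cd9 (0.92) and Vcl (0.91). Stat5b resembled Tes (0.96), Stat4 (0.95) and Osbpl9 (0.95), and Stat5a Muc13 (0.95), Smim5 (0.93) and Gkap1 (0.92). For Abl1 these were Dmxl1, Tspan13 and Mylip (0.89 to 0.92), for Crkl Ddx17, Fnbp1 and Kdm5a (0.89 each), and for Grb2 Cd55, Alox5 and Nucb1 (0.93 each). Bcr resembled Rala, Gm10076 and mt-Nd3 (0.88 each). Among the members Bcr and Abl1, the fusion partners, had r = 0.081, whereas Abl1 and Stat5b had 0.87.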

How the data were processed

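LSK cells, 1 library from WT and 1 from KO leukemic mice, were profiled by 10x 3′ single cell RNA-seq. The deposited values are raw UMI counts per gene and barcode that the authors made with Cell Ranger (6.1.2 in the submitters' processing notes, 4 in the file headers) on mm10, with no filter on barcodes. Here, barcodes with at least 8000 UMIs and under 10% mitochondrial UMIs were kept. This removed 24 WT and 4 KO barcodes by the second filter and left 138183896 and 158438757 UMIs. The study's own minimum was 300 UMIs, which gave 8525 and 7099 cells. Doublets were kept. Free RNA was the sum over barcodes of 10 to 100 UMIs.

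Counts were summed over cells, and CPM carry exact Poisson, log2 ratios exact conditional binomial and shares exact (Clopper-Pearson) 95% intervals. They cover counting error only. Cells were thinned and gated in Python 3.11.15 (numpy 2.4.6, scipy 1.17.1). A gate takes cells with a fixed number of UMIs of its markers among 8000, from 4 (HSC-like) to 50 (plasma-cell-like), and these lines were set after the cells were seen. Cells take the first gate they pass. A gate's name needed 3 markers at 20 CPM and 2-fold over other cells. Genes were described at a mean of 10 CPM and called at 1.5-fold. Doublets were scored with scrublet in scanpy 1.11.5 for an alternative.

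Named were all members, up to 4 genes per list with the largest ratio, the 3 genes most like each member, and 10 genes seen with Cish. A gene that this rule names, and the summary of its list, are not reported here. Members and lists were chosen with earlier results of these data known. The ratios and thinning were tested on simulated data.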

Additional observations from a re-analysis of the deposited data

Results flagged for a closer look

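The group ratios of 4 members lay beyond counting error in opposite directions in different cell groups. With 1 library per group the differences between groups were not tested. Grb2 had a log2 ratio (KO over WT) of -0.0843 in granule-high cells and 0.139 in cells past no gate line. Cish was at -1.50 in HSC-like cells and 0.398 in granule-high cells, the latter at levels below that of free RNA. With the gate lines halved these 2 Cish ratios were -0.93 and -0.11. Pim1 was at -0.176 in granule-high cells and 0.602 in lymphoid-primed-like cells, the former at levels below that of free RNA. Bcl2l1 was at -0.493 in basophil/mast-like cells and 0.669 in lymphoid-primed-like cells.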

How the results depend on the processing

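The median log2 ratio of the 10 members was -0.32 with cells as captured. It was -0.23 over barcodes of over 300 UMIs, -0.023 at 1 composition of the groups and 0.028 without granule-high cells, an alternative chosen after seeing the data. The count of members at least 1.5-fold lower was 1, and became 2 at 1 composition, without granule-high cells and with each cell scaled to the same total. The share of all genes at least 1.5-fold lower was 4.86% with cells as captured. In those settings, in the same order, it was 1.65%, 2.45% and 5.09%. At 1 composition the ratios of Grb2 (0.0066), Stat5a (0.10), Pim1 (0.20) and Bcl2l1 (0.023) changed sign. Without granule-high cells those of Grb2 (0.10), Stat5a (0.10), Cish (0.48), Pim1 (0.30) and Bcl2l1 (0.091) did. Both alternatives change which cells count and with what weight. The 1 composition weights groups by their share of cells, whereas cells as captured count by their UMIs. It leaves out plasma-cell-like cells and takes in innate-lymphoid-like cells, of which WT had 9. The Cish ratio over barcodes of over 300 UMIs was -0.18. Pathway genes past 1.5-fold numbered 12, then 3 at 1 composition and 27 with no filter on level, which admits more genes. The shares of all genes lower and higher were 4.86% and 2.78%, then 1.65% and 1.88%, and 24.0% and 8.69%. Socs2 stayed below 0 in all 9 alternatives over all cells, from -2.05 to -0.92, and Bcr from -0.64 to -0.49. The cause of the shifts between settings was not tested. No paired analysis was possible because each group has 1 library. Depth limits the KO values of small groups: HSC-like cells had 12 to 28 UMIs for Bcr, Abl1, Crkl, Socs2, Cish and Bcl2l1, lymphoid-primed-like cells 5 for Socs2 and 16 for Cish, and S phase cells 12 for Socs2.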
